A study of Mus musculus with 8 samples.

Results

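The genes of the dystrophin complex were described across neonatal mouse cardiomyocytes: dystrophin (Dmd), utrophin (Utrn), dystroglycan (Dag1), alpha-, beta- and delta-sarcoglycan (Sgca, Sgcb, Sgcd), alpha-dystrobrevin (Dtna) and sarcospan (Sspn). They were taken by symbol, 8 of the 48440 entries of the count table, and each symbol stood on 1 entry. The samples were cardiomyocytes purified from hearts of C57BL6/J pups on postnatal day 2, with no treatment or altered allele named in the labels. Each of 4 litters gave 1 male and 1 female heart, so that there were 4 libraries of each sex and 2 of each litter. Every library came from its own pup, and the spread between libraries therefore holds differences between animals together with those of sample preparation. A litter and any preparation that its 2 libraries shared cannot be told apart. All 8 genes had enough counts to enter the tests, and the lowest count of any of them in any library was 174, for Sgcd.

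The dystrophin complex ties the actin cytoskeleton of a muscle cell to the matrix outside it. Dystrophin binds actin inside the cell and the membrane protein beta-dystroglycan, whose partner alpha-dystroglycan binds laminin outside through its sugar chains, while the sarcoglycans and sarcospan form a membrane subcomplex beside dystroglycan, and dystrobrevin and the syntrophins bind dystrophin from within. Loss of dystrophin causes Duchenne muscular dystrophy with cardiomyopathy, loss of sarcoglycans causes limb-girdle muscular dystrophies, and utrophin is the close relative of dystrophin that can take over part of its work.

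The genes differ widely in size, and this enters the results below. In the GENCODE M21 annotation of mouse build GRCm38, Dmd lies on chromosome X from 82948870 to 85206141 on the plus strand and spans 2257.3 kb. Utrn lies on chromosome 10 from 12382188 to 12869365 on the minus strand, Dag1 on chromosome 9 from 108204634 to 108263958 on the minus strand, and Sgca on chromosome 11 from 94962791 to 94976327 on the minus strand. Sgcb lies on chromosome 5 from 73632749 to 73647790 on the minus strand, Sgcd on chromosome 11 from 46896253 to 47988969 on the minus strand, Dtna on chromosome 18 from 23415135 to 23659715 on the plus strand, and Sspn on chromosome 6 from 145931641 to 145965223 on the plus strand.

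The longest annotated transcript measures 14.9 kb for Dmd and 12.4 kb for Utrn, and from 1.72 kb (Sgca) to 6.29 kb (Dtna) for the other 6 genes. None of the 8 shared a window of 100 bases with a transcript of another gene. An antisense gene overlaps exons of Sspn, and its own entry, Sspnos, held 6 to 22 counts, at most 0.323% of the counts of Sspn. Gm47898, which overlaps exons of Dtna on the opposite strand, was not analysed here.

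The upstream sequences of 3 of these genes are shown because Dmd and Sgcd varied most between libraries, while another sarcoglycan gene, Sgca, was not called between litters. Dmd is given at its first start and at an internal start, since the table holds 1 count per gene and so pools full-length and shorter dystrophin transcripts. Each sequence is the RefSeq window of 250 bases before a transcript start on GRCm38.p6, 5′ to 3′ on the strand of the gene. Capitals mark matches, on either strand, to an E-box (CANNTG), an M-CAT element (CATTCC), a CArG box or a MEF2 site, which are motifs known from muscle genes. No 2 of the marked matches overlap in these windows.
Dmd, first start, chrX:82948620-82948869, plus strand: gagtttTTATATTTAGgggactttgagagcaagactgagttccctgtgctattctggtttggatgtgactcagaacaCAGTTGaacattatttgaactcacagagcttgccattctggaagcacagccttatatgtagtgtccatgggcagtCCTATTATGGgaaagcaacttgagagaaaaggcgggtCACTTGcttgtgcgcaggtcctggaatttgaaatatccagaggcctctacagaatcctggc
Dmd, internal start, chrX:85048045-85048294, plus strand: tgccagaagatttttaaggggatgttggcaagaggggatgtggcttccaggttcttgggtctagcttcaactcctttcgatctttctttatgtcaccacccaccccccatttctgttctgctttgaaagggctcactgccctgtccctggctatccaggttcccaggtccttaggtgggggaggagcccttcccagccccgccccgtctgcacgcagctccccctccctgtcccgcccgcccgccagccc
Sgcd, chr11:47379326-47379575, minus strand: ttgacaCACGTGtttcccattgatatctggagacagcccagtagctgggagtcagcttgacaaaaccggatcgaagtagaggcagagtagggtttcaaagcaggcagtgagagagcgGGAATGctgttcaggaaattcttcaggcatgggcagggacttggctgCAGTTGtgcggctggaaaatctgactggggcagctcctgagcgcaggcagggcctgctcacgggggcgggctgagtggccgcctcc
Sgca, chr11:94976328-94976577, minus strand: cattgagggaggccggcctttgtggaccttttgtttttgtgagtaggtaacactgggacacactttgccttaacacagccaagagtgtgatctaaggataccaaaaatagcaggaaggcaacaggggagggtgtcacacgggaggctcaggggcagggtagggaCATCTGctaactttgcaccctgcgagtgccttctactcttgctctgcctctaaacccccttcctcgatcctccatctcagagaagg

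The first Dmd window held 1 MEF2 match, 1 CArG match that begins 98 bases before the start, and 2 E-boxes. The internal Dmd window held no match to the 4 motifs. The Sgcd window, which lies inside the longer GENCODE gene model, held 2 E-boxes and 1 M-CAT match, and the Sgca window held 1 E-box. Among 32851 RefSeq windows of the same length, 66.2% held an E-box, 12.6% an M-CAT match, 2.92% a MEF2 site and 1.47% a CArG box. These matches are a description of the letters and were not linked to the levels measured.

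The tissue label was checked first. Library totals ran from 14226342 to 24910243 counts, and levels below are given as CPM, the depth-scaled read count, with library totals adjusted by the TMM method. The 8 cardiomyocyte markers together had 60007 to 76937 CPM. Summed fibroblast markers had 32.4 to 243 CPM, endothelial markers 16.0 to 148 CPM, mural markers 903 to 1527 CPM and macrophage markers 3.79 to 9.14 CPM, and no marker of these 4 lists was at 0 in every library. Epicardial markers had 13.8 to 23.5 CPM, Schwann and neural markers 10.3 to 14.2 CPM, erythroid markers 97.6 to 528 CPM, atrial markers 205 to 1599 CPM and ventricular markers 17282 to 21282 CPM. Skeletal muscle markers had 2589 to 3592 CPM, with Myh1 and Myh4 at 0, and that list holds Acta1 and Ckm, which the heart also expresses. In such bulk samples, fewer cells of a type and less RNA per cell cannot be told apart.

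Sgcd, Utrn, Sgcb, Dtna and Dmd differed between litters. They are 5 of 8 in the quasi-likelihood test of edgeR, where 32.1% of the 13771 genes tested were called. The count was 3 of 8 in DESeq2, where 23.3% of all genes were called, and without a sex term (3341 of 13771 genes). It was also 3 of 8 with the length offset described below (27.6% of all genes). With a litter left out it ran from 2 of 8 (without litter 4, 3693 of 13877 genes) to 5 of 8 (without litter 2, 4586 of 13740). Library size alone gave 6 of 8 (4720 of 13771 genes), as did no filter on low counts (5723 of 24853). Dag1, Sgca and Sspn did not pass the threshold. The range over litters had a median of 0.38 on the log2 scale among the 8 genes and of 0.37 among all genes tested, close to one another. Each litter was then set against the mean of the other 3, and 7 of 32 such contrasts passed: 3 genes were higher in litter 1 (7.86% of all genes), 1 was lower in litter 3 (14.8% of all genes) and 3 were lower in litter 4 (5.80% of all genes). With a library left out, 3 to 9 of the contrasts passed, the fewest without the litter 1 female and the most without the litter 4 male. None passed as lower in litter 1 or higher in litters 3 or 4, where 5.41%, 13.6% and 4.71% of all genes did, nor in litter 2, where 3.30% were called higher and 0.879% lower. These contrasts share libraries and are not independent.

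**Figure D1:**
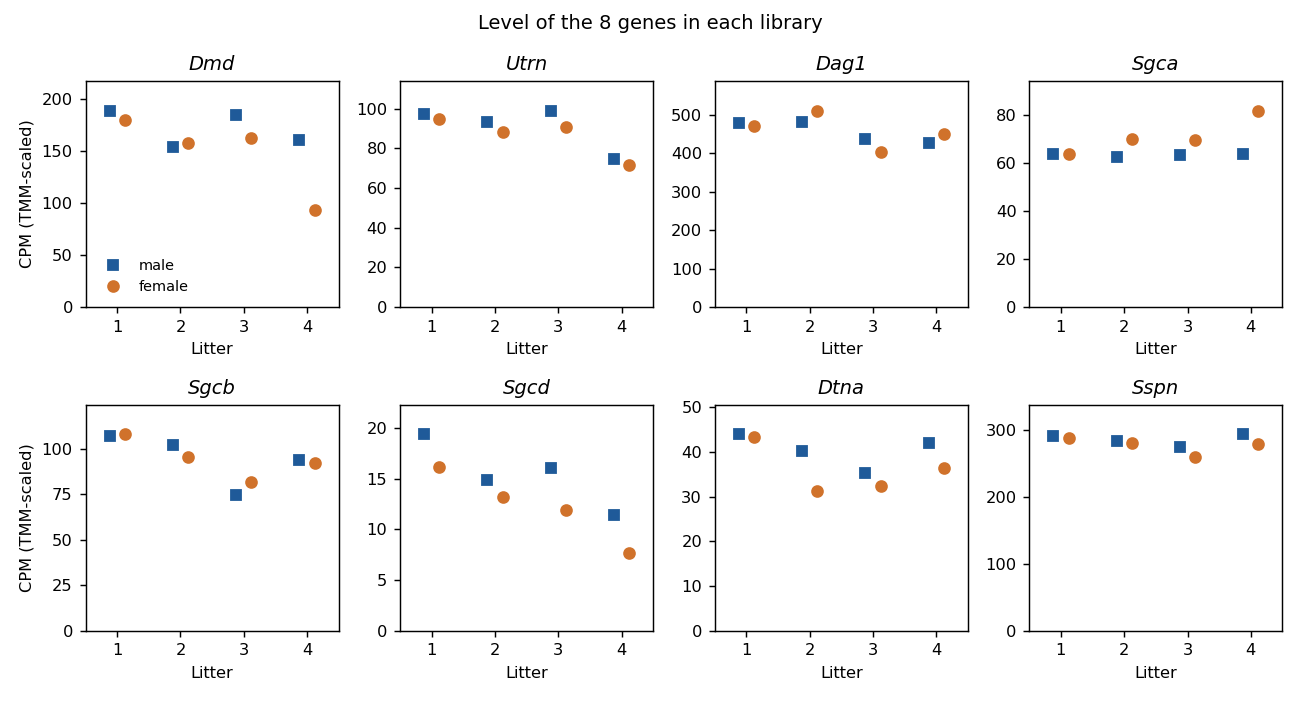
Level of each of the 8 genes in CPM (vertical axes, starting at 0) by litter (horizontal axes), with 1 square per male and 1 circle per female library. Dmd is lowest in the female of litter 4 (93.2 CPM), while Utrn and Sgcd are low in both libraries of litter 4 and Sgcb in both of litter 3.

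Dystrophin itself, the rod-shaped linker between actin and the membrane, was lowest in a single library. In males of litters 1 to 4 Dmd had 189, 154, 185 and 161 CPM, and in females 179.7, 158, 163 and 93.2 CPM. The female of litter 4 lay far below the other 7 libraries, and the male of that litter lay among them. The litters ranged over 0.57 on the log2 scale (edgeR adjusted p = 0.0429). Against the other 3, litter 4 was lower by -0.46 ± 0.12 (log2 difference ± SE, adjusted p = 0.038), where 5.80% of all genes were called lower. Without the female of litter 4 that difference was -0.12 (adjusted p = 0.463), and without the female of litter 1 it was -0.42 (adjusted p = 0.0671). Without the male of litter 4 it was -0.84 (adjusted p = 0.00315) and the litter range was 0.95 (adjusted p = 0.000231), so the size of the litter value depends on which of its pups is kept. The litter call itself was lost without either pup of litter 1 (adjusted p = 0.0516 for the male, 0.0924 for the female), without the litter 3 male (0.0521) or the litter 4 female (0.072), and without litter 1 (0.0657) or litter 4 (0.0548). It was also lost in DESeq2 (0.3, where 23.3% of all genes were called) and in the fit without a sex term (0.137).

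Utrophin, the autosomal relative that resembles dystrophin along most of its length, was low in both pups of litter 4. Male libraries had 97.5, 93.2, 99.1 and 74.7 CPM of Utrn in litters 1 to 4, and female libraries had 94.7, 88.3, 90.8 and 71.7 CPM. Both libraries of litter 4 lay below the other 6, which did not fall under 88.3 CPM. The litter range was 0.39 (edgeR adjusted p = 0.00501), and litter 4 was lower than the other 3 by -0.36 ± 0.06 (adjusted p = 0.00542). Without the male of litter 4 the difference was -0.35 (adjusted p = 0.0526), and without litter 4 altogether the litter range was 0.09 (adjusted p = 0.56).

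Levels in litter 4 fell with transcript length across the transcriptome, and Dmd and Utrn have the longest transcripts of the complex. Among 3078 tested genes whose longest transcript is at most 2 kb, the median log2 difference of litter 4 from the other 3 was 0.13. It was 0.05 in the class up to 4 kb, -0.05 up to 6 kb, -0.15 up to 9 kb, -0.24 up to 12 kb and -0.25 among the 155 genes with transcripts longer than 12 kb, the class of Dmd and Utrn. In that last class 86.5% of genes were below 0. The male and the female of litter 4 showed it alike, with median deviations from the gene means of -0.21 and -0.19, while the other 6 libraries lay between 0.02 and 0.10. Utrn was low in both pups of litter 4, as this class was, whereas Dmd was low only in the female. By the genomic span of the gene, the litter 4 median went from 0.1 for spans up to 10 kb to -0.17 for the 114 genes over 500 kb, the class of Dmd and Sgcd.

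**Figure D2:**
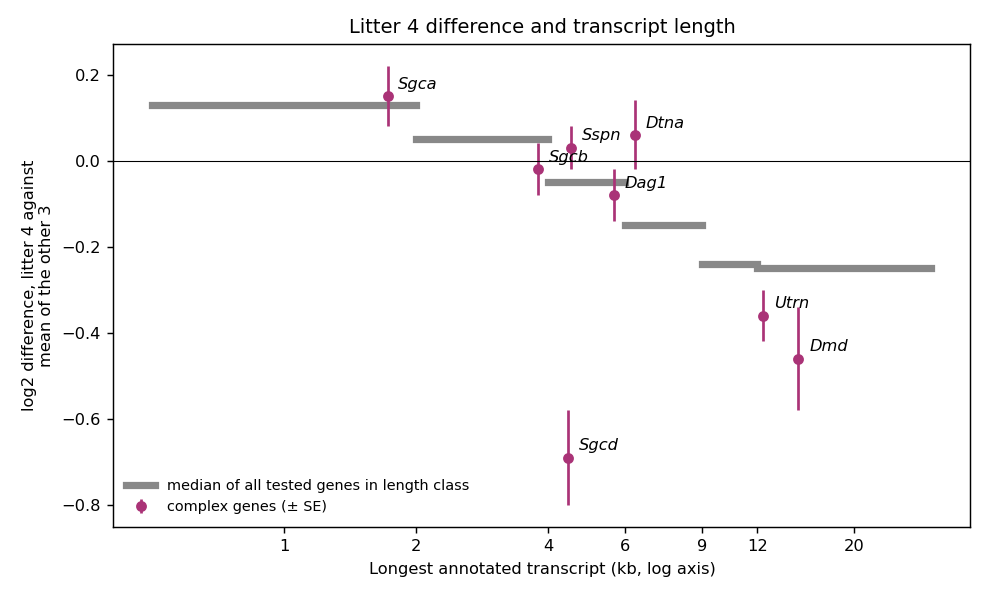
Log2 difference of litter 4 from the mean of the other 3 litters (vertical axis) against the length of the longest annotated transcript in kb (log axis). Points with SE bars are the 8 complex genes and grey bars are medians of all tested genes in 6 length classes, which fall from 0.13 to -0.25, while Sgcd lies at -0.69 in a transcript length class whose median is -0.05 (-0.17 in its span class).

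A fit with a transcript length offset for each library was therefore added after the data were seen. It did not correct for gene span. In that fit, 27.6% of all genes were called between litters and 3 of the 8 complex genes were, namely Sgcd, Sgcb and Dtna. Litter 4 then differed by -0.16 for Dmd (edgeR adjusted p = 0.5) and by -0.1 for Utrn (adjusted p = 0.384), and their tests over litters gave 0.452 and 0.493. The delta-sarcoglycan value remained at -0.66 ± 0.11 (adjusted p = 0.01), where 1.66% of all genes were called lower in litter 4 under the offset. The litter 3 contrasts of Dag1 and Dtna, which had not passed without the offset (adjusted p = 0.0722 and 0.0577), passed as lower, at -0.19 (adjusted p = 0.0297) and -0.26 (adjusted p = 0.0259), where 15.2% of all genes did, and the litter 1 contrast of Dtna no longer passed (adjusted p = 0.0567). The cause of the length gradient was not tested.

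**Figure D3:**
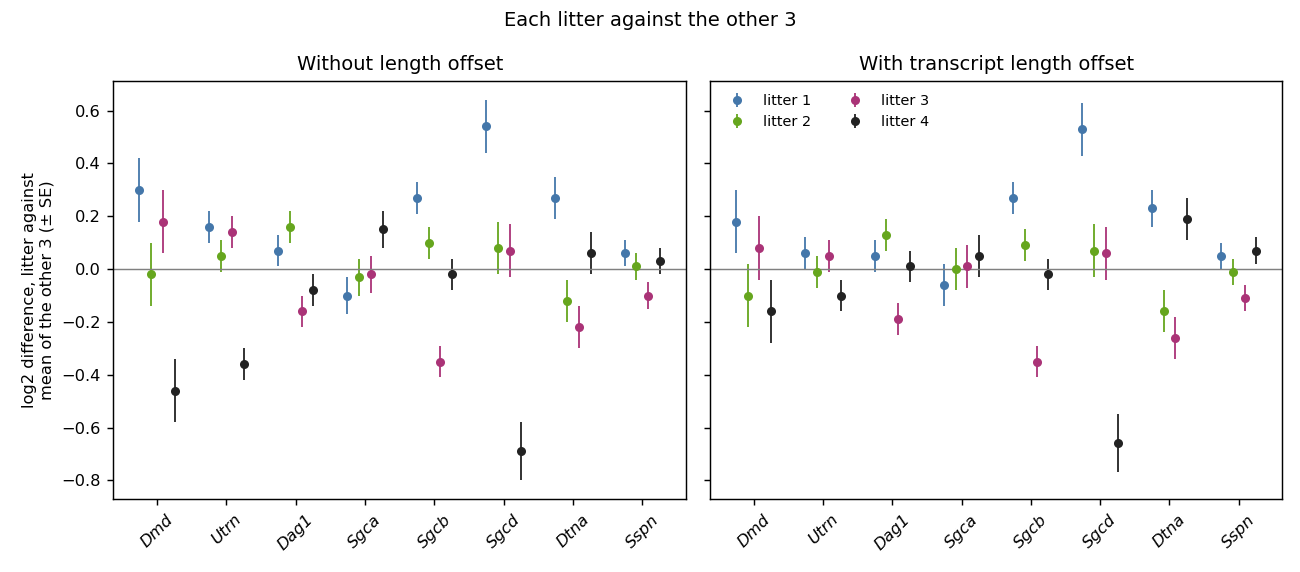
Log2 difference of each litter from the mean of the other 3 (vertical axis, ± SE) for the 8 genes, without (left) and with (right) the transcript length offset, coloured by litter. Litter 4 values of Dmd and Utrn move from -0.46 and -0.36 to -0.16 and -0.1, while Sgcd in litter 4 and Sgcb in litter 3 stay at -0.66 and -0.35.

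Dystroglycan, the laminin receptor at the centre of the complex, was among the steadier genes. Its males had 479, 481, 438 and 426 CPM of Dag1 in litters 1 to 4, and its females had 469.5, 511, 403 and 449 CPM. The highest library held 1.27 times the level of the lowest, with litters 3 and 4 overlapping and all 4 libraries of litters 1 and 2 above them. The litter range was 0.24 (edgeR adjusted p = 0.07), which passed with library size alone as the scaling (0.0452) and with no filter on low counts (0.0304).

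Of the sarcoglycans, Sgcd varied most and Sgca least between litters. Delta-sarcoglycan, whose loss in the hamster is a classical cause of inherited cardiomyopathy, had 19.4, 14.9, 16.04 and 11.4 CPM in males of litters 1 to 4 and 16.2, 13.2, 11.96 and 7.63 CPM in females. Both pups of litter 1 lay above the other 6 libraries and both of litter 4 lay below them. The litter range was 0.92 (edgeR adjusted p = 0.00181). Litter 1 was higher by 0.54 ± 0.1 (adjusted p = 0.00431), where 7.86% of all genes were called higher, and litter 4 was lower by -0.69 ± 0.11 (adjusted p = 0.00442). The first of these calls was lost without the male (0.0608) or the female (0.111) of litter 1, and the second without the female of litter 4 (-0.55, adjusted p = 0.0617). With litter 4 left out, the litter range was 0.34 (adjusted p = 0.0517), and with litter 1 left out it was 0.59 (adjusted p = 0.0159). The highest library held 2.54 times the Sgcd level of the lowest, the widest spread of the 8 genes, with Dmd next at 2.03 times.

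Beta-sarcoglycan, which forms the core of the sarcoglycan subcomplex with delta-sarcoglycan, was low in litter 3. Males had 107, 102, 74.7 and 93.6 CPM of Sgcb in litters 1 to 4, and females had 108, 95.3, 81.6 and 92.2 CPM. Both libraries of litter 3 lay below the other 6, and both of litter 1 lay above them. The litter range was 0.46 (edgeR adjusted p = 0.00517). Litter 3 was lower by -0.35 ± 0.06 (adjusted p = 0.00217), where 14.8% of all genes were called lower, and litter 1 was higher by 0.27 ± 0.06 (adjusted p = 0.0157). The litter 3 call was lost without its male (-0.27, adjusted p = 0.0643), the litter 1 call without its male (0.193) or its female (0.213), and the litter range without litter 3 was 0.21 (adjusted p = 0.159).

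Litter 3 also differed in markers of other cells. Its male and female had 51.8 and 32.4 CPM of summed fibroblast markers against 108 to 243 CPM in the other litters, and 6 of 8 such markers passed as lower, where 14.8% of all genes did. Mural markers had 928 and 903 CPM against 1338 to 1527 CPM, with 4 of 8 lower, and endothelial markers 17.9 and 19.6 CPM against 16.0 to 148 CPM, with 5 of 8 lower. Cardiomyocyte markers had 60061 and 60007 CPM against 66504 to 76937 CPM, with 3 of 8 lower, and atrial markers had 1301 and 1599 CPM against 205 to 802 CPM. Of the ventricular markers 2 of 4 passed as lower in litter 3, of the skeletal muscle markers 2 of 8 (4 tested), and of the epicardial markers 1 of 6. The summed epicardial markers were nonetheless highest in litter 3, at 23.5 and 23.2 CPM against 13.8 to 18.3 CPM. Ventricular sums there were 19448 and 18459 CPM, within the 17282 to 21282 CPM of the other litters. Markers that passed as higher were not counted for litter 3. In litter 4, 6 of 8 fibroblast, 3 of 8 mural and 3 of 4 ventricular markers passed as higher, where 4.71% of all genes did, and 3 of 8 cardiomyocyte and 2 of 8 skeletal muscle markers (4 tested) passed as higher. As lower passed 2 cardiomyocyte, 1 mural, 1 macrophage and 1 epicardial marker, where 5.80% of all genes did. The male and female sums there were 227 and 108 CPM (fibroblast), 1527 and 1414 CPM (mural), 21122 and 21282 CPM (ventricular) and 66504 and 76937 CPM (cardiomyocyte). The part of these markers in the values of Sgcb, Sgcd, Utrn and Dmd was not tested.

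Alpha-sarcoglycan, which is found in striated muscle, was nearly constant in males. Male libraries had 63.9, 62.7, 63.6 and 63.8 CPM of Sgca, and female libraries had 63.8, 69.95, 69.8 and 81.96 CPM in litters 1 to 4. The female of litter 4 was the highest of all 8, and the female of litter 1 lay among the males. The litter range was 0.18 (edgeR adjusted p = 0.353), and it was 0.06 without the female of litter 4, 0.31 without its male and 0.29 without the litter 1 male. Sspn, which encodes sarcospan, the small membrane protein that sits with the sarcoglycans, was the steadiest gene, with 291, 283, 274 and 293 CPM in males and 287, 279.8, 259 and 278 CPM in females. Its litter range was 0.12 (edgeR adjusted p = 0.454), and its highest library held 1.13 times the level of its lowest.

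Alpha-dystrobrevin, the dystrophin-related protein that carries syntrophins to the complex, was highest in litter 1. Male libraries had 43.96, 40.3, 35.3 and 42.1 CPM of Dtna and female libraries 43.4, 31.2, 32.4 and 36.5 CPM in litters 1 to 4. Both libraries of litter 1 lay above the other 6, and among the rest the values of litter 2 overlapped those of litters 3 and 4, while litter 3 lay below litter 4. The litter range was 0.37 (edgeR adjusted p = 0.0354), and litter 1 was higher by 0.27 ± 0.08 (adjusted p = 0.0326). The litter call was lost without either pup of litter 1 (adjusted p = 0.0539 for the male, 0.236 for the female) or of litter 3 (0.0919 and 0.0623), without litter 1 (range 0.22, adjusted p = 0.241) or litter 3 (0.115), and in DESeq2 (0.0849) and without a sex term (0.131). The litter 1 contrast was lost without its male (0.38, adjusted p = 0.0978) or its female (0.17, adjusted p = 0.515), without the litter 2 female (0.0638), the litter 3 male (0.0563) or the litter 4 female (0.0559), and with the length offset (0.0567).

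No member of the complex was called different between the sexes. With edgeR, 0 of 8 passed, against 0.0436% of all genes tested, and 0 of 8 had an unadjusted p under 0.05, against 2.22%. DESeq2 also called 0 of 8, where it called 0.0654% of all genes. The largest differences were those of Sgcd and Dmd. Sgcd averaged 15.4 ± 3.3 CPM over the 4 males and 12.2 ± 3.55 CPM over the 4 females (± SD), with a log2 difference, male minus female, of 0.33 ± 0.22 (SE) with a 95% interval from -0.21 to 0.88. Dmd, on the X chromosome, averaged 172 ± 17.6 CPM in the males against 148 ± 38.0 CPM in the females, a log2 difference of 0.22 ± 0.18 with an interval from -0.21 to 0.65. Both values rest in part on the female of litter 4, without which they were 0.16 and 0.05, and they reached 0.5 and 0.32 when the litter 1 female was left out. These intervals come from the fit without a litter term.

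The remaining genes had smaller sex differences. Sgca, at 63.5 ± 0.546 CPM (male) and 71.4 ± 7.61 CPM (female), differed by -0.17 ± 0.08 with an interval from -0.37 to 0.04, and Dtna, at 40.4 ± 3.74 and 35.9 ± 5.47 CPM, by 0.17 ± 0.12 from -0.11 to 0.45. Without the female of litter 4 the Sgca difference was -0.09, and that of Dtna lay between 0.1 (no litter 2 female) and 0.28 (no litter 1 female) with single libraries left out. Utrn differed by 0.08 ± 0.11 (interval -0.2 to 0.36) and Sspn by 0.05 ± 0.07 (-0.12 to 0.22). Dag1 differed by -0.01 ± 0.09 (-0.23 to 0.22) and Sgcb by 0.0 ± 0.12 (-0.3 to 0.3). The adjusted p of all 8 genes was 1.0 in this fit, and male and female values overlapped for each of them.

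Within litters, several genes kept the same order of the sexes. The male was higher than its female litter mate in all 4 litters for Utrn, Sgcd, Dtna and Sspn, which held for 10.9% of all genes tested, and in 3 of 4 for Dmd. The male was lower in 3 of 4 litters for Sgca. With litter as a replicate block, which compares the male with the female of each litter, 0 of 8 genes passed, against 0.211% of all genes, and the smallest adjusted p was that of Sgcd, 0.34 ± 0.09 (edgeR adjusted p = 0.225), beside 0.25 ± 0.1 for Dmd (adjusted p = 0.4). At an unadjusted p under 0.05 this paired fit held 4 of the 8 genes, namely Sgcd, Dtna, Sgca and Dmd, against 11.6% of all genes. Without litter 4 the paired differences of these genes were 0.28 for Sgcd, 0.17 for Dtna, -0.1 for Sgca and 0.07 for Dmd.

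**Figure D4:**
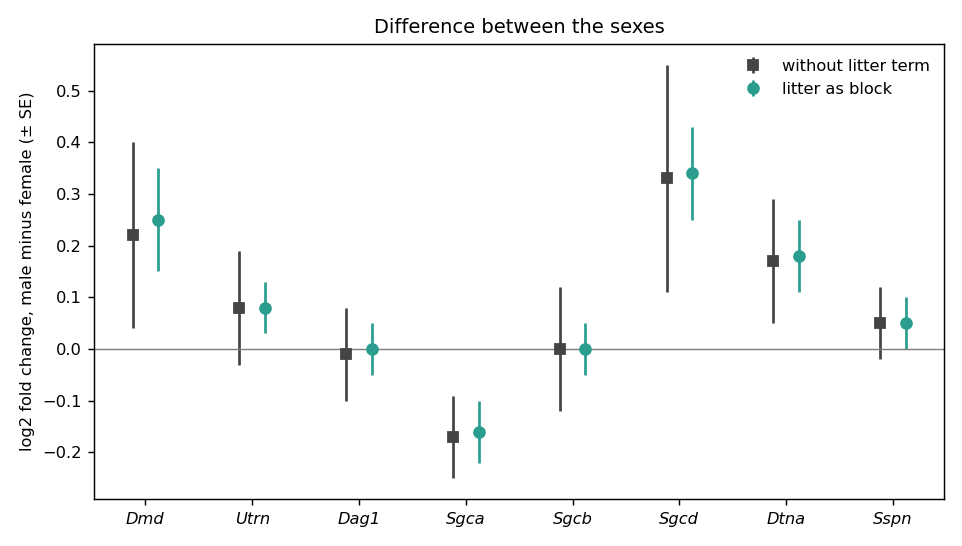
Log2 difference between the sexes, male minus female (vertical axis, ± SE), of the 8 genes without a litter term (squares) and with litter as a block (circles). The point values are close in both fits, from -0.17 for Sgca to 0.33 for Sgcd without the block, and the SE are smaller with the block.

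Utrophin and dystrophin were then compared within each library, which does not depend on how libraries are scaled. The ratio of Utrn to Dmd counts was 0.515, 0.607, 0.535 and 0.462 in males of litters 1 to 4 and 0.527, 0.559, 0.557 and 0.769 in females. The female of litter 4 had the highest ratio and its brother the lowest. Per kilobase of exon the ratio ran from 0.643 to 0.845 in the other 7 libraries and was 1.07 in the female of litter 4. The log2 ratio was -0.92 ± 0.16 in males and -0.75 ± 0.25 in females (SD, n = 4), a difference of -0.18 (exact permutation test, two-sided, p = 0.343, smallest possible 0.0286). That test ignores the litters. Exact sign flips of the 4 within-litter differences gave p = 0.625, in a test that cannot reach 0.05 with 4 litters. Without single libraries the difference lay between -0.24 and -0.05, the last without the female of litter 4.

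Levels of different genes were compared only per length, as CPM per kilobase of all annotated exons of the gene. Dag1 stood highest, at 71.9 ± 5.5 CPM per kb (SD over 8 libraries), followed by Sspn at 56.2 ± 2.17, Sgca at 38.9 ± 3.77 and Sgcb at 23.3 ± 2.89 CPM per kb. The libraries of each of these 4 genes lay apart from those of the next gene in the order. Dmd had 6.74 ± 1.27 and Utrn 5.19 ± 0.598 CPM per kb, and their ranges over libraries overlapped (3.92 to 7.95 and 4.19 to 5.79). Dtna, at 2.25 ± 0.294 CPM per kb, and Sgcd, at 1.68 ± 0.436 CPM per kb, also overlapped. The order of the 8 genes was the same when the longest transcript was used as the length. Such levels depend on which exons are used, and the deposited table holds no counts per isoform.

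**Figure D5:**
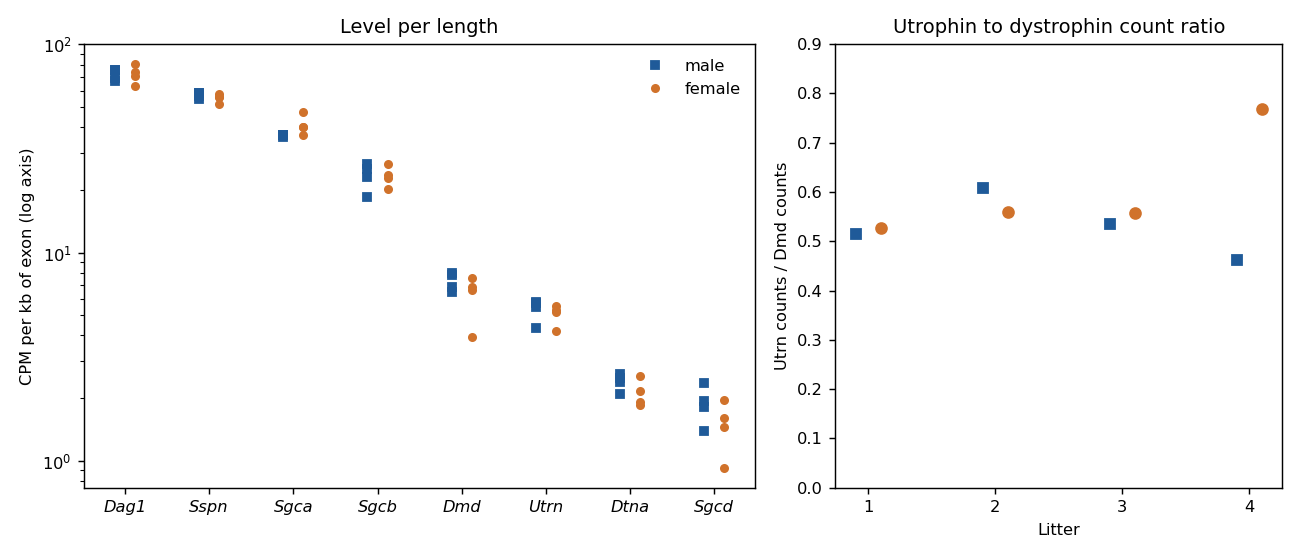
Left, level per length in CPM per kb of exon (log axis) of the 8 genes in each male (square) and female (circle) library, ordered by their mean. Right, ratio of Utrn to Dmd counts by litter, where the female of litter 4 has 0.769 and the other libraries 0.462 to 0.607.

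Among 12 further genes of the complex, 8 could be tested and 4 of them were called between litters, against 32.1% of all genes, with a median range of 0.5 (0.37 among all genes). Beta-1-syntrophin, an adaptor that binds dystrophin and dystrobrevin, had 66.8, 62.7, 52.7 and 42.4 CPM of Sntb1 in males of litters 1 to 4 and 68.8, 49.2, 39.2 and 36.6 CPM in females. Its level was highest in litter 1 (0.55 ± 0.08, edgeR adjusted p = 0.00145) and lowest in litter 4 (-0.5 ± 0.09, adjusted p = 0.00724), as were the levels of Sgcd. Caveolin-3, the muscle caveolin that binds dystroglycan, went the other way in litter 4, where both libraries (216 and 210.4 CPM of Cav3) lay above the other 6 (140 to 161 CPM), a log2 difference of 0.49 ± 0.05 (adjusted p = 0.00118). Sntb2, a second beta-syntrophin, was lower in litter 4 by -0.66 ± 0.14 (adjusted p = 0.0142). With the length offset, Sntb1 and Cav3 were still called between litters (adjusted p = 0.00108 and 0.00223), and Sntb2 (0.127) was not.

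Of the untested genes of that list, Sgcz had 0 counts in all libraries, Sntg1 at most 1, Nos1 at most 2 and Drp2 2 to 20 counts. Per length, Sgce, the epsilon-sarcoglycan found outside striated muscle as well, had 1.56 ± 0.16 CPM per kb and beta-1-syntrophin (Sntb1) had 9.82 ± 2.37 CPM per kb.

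Among enzymes that build the laminin-binding sugars of alpha-dystroglycan, all 17 were tested and 3 were called between litters, 17.6% of the list against 32.1% of all genes, with a median range of 0.27 (0.37 among all genes). Pomt1, part of the enzyme that adds the first mannose, had 11.0 ± 0.212 CPM in litter 3 and means of 16.1 to 18.3 CPM in the others (SD, n = 2; litter 3 lower by -0.64 ± 0.1, edgeR adjusted p = 0.000893). B3galnt2, which extends the sugar chain, was also lower in litter 3 (-0.44 ± 0.09, adjusted p = 0.00401). Dpm2, a subunit of the enzyme that makes the mannose donor, was higher there (0.3 ± 0.09, adjusted p = 0.0313).

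Of 9 genes for matrix ligands of dystroglycan, 8 were tested and 4 were called between litters (32.1% among all genes), with a median range of 0.35 (0.37 among all genes). Lama1 had 0 to 8 counts and was not tested. The laminin chain gene Lamb2 and the perlecan gene Hspg2 were lower in litter 3, by -0.47 ± 0.08 (edgeR adjusted p = 0.00141) and -0.36 ± 0.08 (adjusted p = 0.00445). Agrin (Agrn) and the laminin chain gene Lamb1, the latter named here as the last called gene of the list, were higher in litter 3, by 0.37 ± 0.08 (adjusted p = 0.00619) and 0.39 ± 0.06 (adjusted p = 0.00047). Litter 3 also differed in the marker sums given above, with lower fibroblast, mural and cardiomyocyte sums and higher atrial and epicardial sums. Its endothelial sums overlapped those of other litters. The part of these markers in the values of the matrix genes was not tested.

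Of 15 cytoskeletal and membrane partners, 9 were called between litters (32.1% among all genes), with a median range of 0.45 (0.37 among all genes). The 3 called genes with the widest range were all lowest in litter 3. Trim72, the membrane repair protein MG53, had 16.7 ± 1.29 CPM in litter 3 and means of 38.7 to 57.2 CPM in the others (SD, n = 2), a difference of -1.56 ± 0.09 (edgeR adjusted p = 1.32e-06). Itga7, the laminin-binding integrin of muscle, was lower there by -0.71 ± 0.09 (adjusted p = 0.0002), and dysferlin (Dysf), another membrane repair gene, by -0.62 ± 0.07 (adjusted p = 0.000101). The next called genes by range, the actins Actb and Actg1, named here outside the rule, went the other way and were higher in litter 3 by 0.51 ± 0.09 (adjusted p = 0.00195) and 0.58 ± 0.14 (adjusted p = 0.0107). None of the genes tested in these 4 lists was called between the sexes by edgeR, with or without the litter block.

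The genes whose pattern over the 8 libraries was most like that of 3 members were found by the root mean square difference of centred log2 CPM among 8564 genes. For Dmd they were Chm (0.12), Fnip1 (0.122) and Ccdc88a (0.124), where the median over all candidates was 0.34. For Utrn they were Etnk1 (0.0361), Znrf3 (0.0373) and Mysm1 (0.0406), with a median of 0.221. For Dag1 they were Prrc2a (0.0244), Smurf1 (0.0327) and Usp13 (0.0373), with a median of 0.174. Among the members, the closest pair was Dag1 with Sspn (0.0903), and Dmd lay closest to Sgcd (0.17) and then to Utrn (0.202). All these values share the same 8 libraries and are given as a description.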

How the data were processed

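Cardiomyocyte RNA of 8 pups was sequenced in single-end reads of a stranded kit for total RNA, per the labels' protocols, while the labels name the molecule as poly(A) RNA. The authors deposited raw read counts per gene symbol. The submitters' processing notes name STAR 2.7.3a and mm10, and the counting program, its annotation and its use of strand are not given in the sources used here. The members and lists were chosen with earlier results of these data known.

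From the deposited counts, 13771 of 48440 genes passed filterByExpr on sex and were tested with edgeR 4.0.16 in R 4.3.3 (quasi-likelihood F test, TMM scaling, Benjamini-Hochberg adjustment over all genes tested, threshold 0.05). Sex was fitted without a litter term (6 residual degrees of freedom, which also set the 95% intervals), and litter with a sex term (3). Standard errors are the size of the log2 difference over the square root of F. Lists are described by counts and medians without a test. Transcript lengths came from GENCODE M21 on GRCm38, the same build as mm10, and 96.7% of tested genes had one. The length offset is a lowess curve (span 0.3) of centred log2 CPM on log2 length in each library.

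The labels give the litter, which pairs the samples. After removal of sex means, libraries of one litter correlated across genes at 0.367 to 0.696 and those of different litters at -0.482 to 0.27. No 2 libraries of a sex agreed within sampling noise (chi-square per degree of freedom 9.56 to 44.9). On simulated counts of 13771 genes with 200 changed by 1 on the log2 scale, the sex test recovered 100% with 3.38% of calls false. The litter test recovered 94.5% with 5.03% false. Recovery of differences smaller than 1 was not tested. The largest sex difference of the 8 complex genes without a litter term was 0.33, for Sgcd. Genes were named by these rules: all members, from each list up to 3 called genes with the widest litter range, untested list genes, and the 3 genes most like Dmd, Utrn and Dag1 among those with a mean of at least 10 CPM. Exceptions are marked, and a few genes of the lists are not reported here. Alternatives were DESeq2 1.42.0, library size alone, other filters, the litter block, no sex term, another gene length and leaving out each library or litter.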

Additional observations from a re-analysis of the deposited data

Results flagged for a closer look

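In 40 groups of 4 libraries of one sex, the members, the Utrn to Dmd ratio and the summed markers were searched for a library far from the other 3, and 4 were found, where chance gives about 1 in 20. The groups share libraries and are not independent. The log2 ratio of Utrn to Dmd was -0.38 in the female of litter 4, against -0.92 to -0.84 in the other females. That library had the lowest Dmd and Sgcd and the highest Sgca of all 8. The female of litter 3 stood apart in 3 marker sums. Its mural markers had 903 CPM against 1394 to 1414 CPM, its epicardial markers 23.2 CPM against 13.9 to 15.3 CPM, and its atrial markers 1599 CPM against 205 to 397 CPM. The male of litter 3 had 928, 23.5 and 1301 CPM of the same sums.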

How the results depend on the processing

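Of 389 values of single genes under an alternative, 329 kept their side of the threshold and, where they have a sign, their direction. The call was lost by 38 and gained by 2, and 20 changed sign, all of these in sex differences near 0 that were not called. Values not called in the main fit could not lose a call. These include all sex differences and the litter ranges of Dag1, Sgca and Sspn. The contrasts of single litters enter this tally only where they had passed, so gains among the others are not in it. Sgcb changed sign between the sexes with the replicate block (-0.00068), with library size alone (-0.01), with no filter on low counts (-0.01), with a mean of at least 50 counts (-0.0039) and with the block and the length offset together (-0.0028). Without single libraries or litters it lay between -0.07 and 0.1, Dag1 between -0.07 and 0.04, and Utrn between -0.0012 and 0.16.

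The count of sex genes over the transcriptome, 6 in edgeR, was 29 with the replicate block (paired fit) and 27 with the block and the length offset, and 5 to 7 without single libraries. With the block and without litters 1 to 4 it was 25, 22, 44 and 24, and there Sgcb had -0.00023, -0.05, 0.03 and -0.01, while Dag1 had 0.01 and 0.02 without litters 2 and 4. The members called between litters, 5 of 8, were 3 in DESeq2, 3 without a sex term, 3 with the length offset, 6 with library size alone, 6 with no filter on low counts and 2 to 5 with a library or litter left out. Over all genes the litter count was 3215 to 5723 under the other settings, the highest with no filter on low counts. With a library or litter left out it lay between 1898 and 4586, the lowest without litter 3, and the litter contrasts of members that passed, 7 of 32, lay between 3 and 9 with a library left out. Per kb of the longest transcript, Dmd had 10.8, Utrn 7.17, Dag1 80.7, Sgcd 3.11, Dtna 6.06 and Sspn 62.2 CPM. A litter has 2 libraries, so when 1 is left out the other is assumed to vary like the remaining litters. Depth limits Sgcd most, at 174 to 483 counts per library.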
